A study of Arabidopsis thaliana with 12 samples.

Results

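The 10 core genes of the Arabidopsis thaliana circadian clock are described here in whole seedlings treated with volatiles given off by Tolypocladium inflatum GT22, a fungus that promotes plant growth, and in control seedlings. They were chosen by name and locus: CCA1, LHY, TOC1, PRR5, PRR7, PRR9, GI, ELF3, ELF4 and LUX. All 10 have a row in each of the 3 deposited tables, which hold 26797, 26605 and 26664 rows at 3, 24 and 48 h. Seedlings were sampled at 3, 24 and 48 h with volatiles or as controls, giving 6 groups of 2 libraries and 12 libraries in all. The labels give the volatile groups as mVCs and the tables as GT22, and they name no mutant, transgene, metal or pathogen treatment. Seedling age, the light regime and the hour of day at sampling are not given in the sources used here. For each gene and group the authors deposited 1 value, in FPKM, a read level scaled for transcript length and library total. The spread within a group's 2 libraries is therefore not visible and no SD can be given, and the depth of the libraries is unknown. The labels do not say whether a group's libraries were grown separately, so the deposited p-values may measure technical spread only.

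The plant clock is a set of transcription factors that repress each other in turn over the day. CCA1 and LHY, related MYB factors that peak around dawn, repress the genes of the evening; the pseudo-response regulators PRR9, PRR7, PRR5 and TOC1 follow in that order through the day and repress CCA1 and LHY; and ELF3, ELF4 and LUX form the evening complex, a repressor of PRR9 and other genes at dusk and in the night. GI, a large protein expressed late in the day, stabilises the F-box protein ZTL, which marks TOC1 and PRR5 for degradation. The clock sets the daily timing of photosynthesis, growth and many defence genes.

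The regions before 5 of these genes are shown because they carry the short motifs through which clock proteins are known to act, and because the genes fell on opposite sides of the pattern over time described below. They are the 300 bases before the annotated gene start, read from TAIR10.1 with its RefSeq annotation and written 5′ to 3′ on the gene's strand. Capitals mark the G-box, CACGTG, in CCA1, LHY and PRR9, and the evening element, AAAATATCT on either strand, in TOC1 and LUX. LUX also holds a G-box, which is left in lower case. The windows of ELF4 and GI, genes that were also higher at 3 h than at 24 h in controls, held no evening element and are not shown. PRR7 held a G-box but differed little between times. Its window is not shown either, because its row reaches into the window in 1 table. The 5 windows shown were thus picked with the levels known and do not stand for the other core genes. CCA1 lies at chr2:19245291-19245590 (plus strand), LHY at chr1:37872-38171 (minus strand), PRR9 at chr2:19232307-19232606 (plus strand), TOC1 at chr5:24674663-24674962 (plus strand) and LUX at chr3:17182742-17183041 (plus strand).
CCA1: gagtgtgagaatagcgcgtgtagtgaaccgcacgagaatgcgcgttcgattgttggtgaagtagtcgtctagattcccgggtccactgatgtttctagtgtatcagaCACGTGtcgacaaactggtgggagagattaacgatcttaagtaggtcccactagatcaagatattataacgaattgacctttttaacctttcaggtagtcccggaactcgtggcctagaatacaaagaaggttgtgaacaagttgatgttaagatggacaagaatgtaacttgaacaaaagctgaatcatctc
LHY: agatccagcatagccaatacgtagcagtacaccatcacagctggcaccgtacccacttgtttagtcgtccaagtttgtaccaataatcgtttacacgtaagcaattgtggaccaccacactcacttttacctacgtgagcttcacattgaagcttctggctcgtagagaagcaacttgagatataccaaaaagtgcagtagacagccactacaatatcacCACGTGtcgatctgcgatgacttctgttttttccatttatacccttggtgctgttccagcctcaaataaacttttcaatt
PRR9: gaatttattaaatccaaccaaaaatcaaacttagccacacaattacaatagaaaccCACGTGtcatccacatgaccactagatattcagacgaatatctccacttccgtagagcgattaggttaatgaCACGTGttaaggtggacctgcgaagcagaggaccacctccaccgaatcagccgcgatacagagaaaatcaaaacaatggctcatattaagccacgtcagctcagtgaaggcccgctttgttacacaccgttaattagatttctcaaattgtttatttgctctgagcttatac
TOC1: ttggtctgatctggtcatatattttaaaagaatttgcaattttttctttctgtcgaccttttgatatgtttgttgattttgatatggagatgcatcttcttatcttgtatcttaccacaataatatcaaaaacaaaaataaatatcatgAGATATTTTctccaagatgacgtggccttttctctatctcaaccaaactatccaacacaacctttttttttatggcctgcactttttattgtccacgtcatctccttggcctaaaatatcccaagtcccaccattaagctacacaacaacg
LUX: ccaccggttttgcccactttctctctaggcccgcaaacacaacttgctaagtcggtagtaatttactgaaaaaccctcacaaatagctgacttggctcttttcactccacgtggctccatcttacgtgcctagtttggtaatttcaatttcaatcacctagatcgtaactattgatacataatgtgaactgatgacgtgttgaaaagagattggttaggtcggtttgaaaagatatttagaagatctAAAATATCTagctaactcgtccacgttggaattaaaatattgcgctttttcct

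Within these windows, the evening element was matched in 3 of the 10 core genes, TOC1, PRR5 and LUX, and in 2.79% of the windows of 27443 protein-coding genes. Its match in LUX lay at positions -53 to -45 from the gene start, and that in TOC1 at -151 to -143. PRR5 had 2 matches, at -292 to -284 and -187 to -179, but in all 3 tables the row of PRR5 covers this whole window, so its sequence is not printed. By those rows, the matches of PRR5 lie inside the measured gene and not before it. The rows of PRR7 and ELF3 reach into their windows in 1 table each. The G-box was matched in 5 of the 10, CCA1, LHY, PRR9, PRR7 and LUX, against 7.09% of all windows. It stood at -193 to -188 in both CCA1 and LUX, and at -80 to -75 in LHY. A match to GATTCG or GATACG, the letters bound by LUX, was found in PRR9, ELF3 and ELF4, and in 14.3% of all windows. The CCA1-binding site, searched as AAAAATCT or AACAATCT, was found in PRR5 and ELF3, and in 9.99% of all windows. All motifs were searched on both strands. In PRR5, the CCA1-binding site stood at -198 to -191, apart from its evening elements. The window of GI held none of these motifs, which says only that these letters are not in those 300 bases. A match is a description of the sequence and does not show that a protein binds there.

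**Figure D1:**
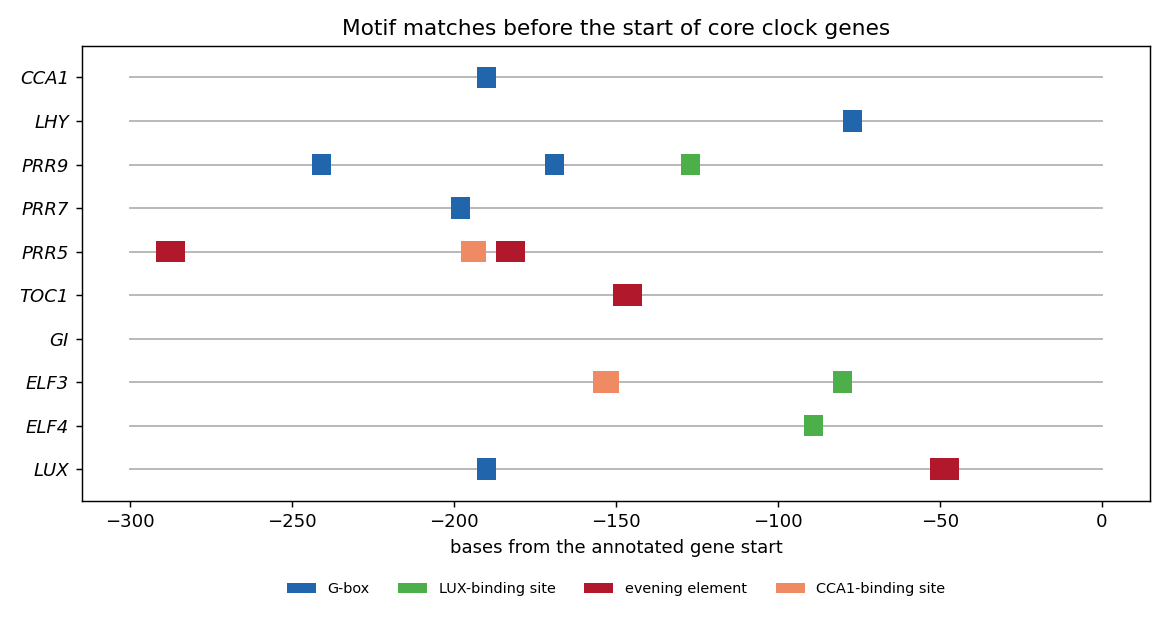
Positions of motif matches in the 300 bases before the annotated start of each core clock gene. The horizontal axis gives bases from the gene start and each box is 1 match on either strand: red for the evening element, orange for the CCA1-binding site, blue for the G-box and green for the LUX-binding site. Evening elements are seen in PRR5, TOC1 and LUX, and G-boxes in CCA1, LHY, PRR9, PRR7 and LUX.

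In the comparison of volatiles with control, none of the core clock genes passed the q-value threshold of 0.05 at any time in the authors' deposited table. Of the 10 genes 10, 9 and 9 had a row of their own at 3, 24 and 48 h, and all of these rows were tested. The number called was 0 of 10 at 3 h, 0 of 9 at 24 h and 0 of 9 at 48 h, where 0.113%, 0.124% and 0.252% of all tested rows were called. At an unadjusted p-value under 0.05 the number was also 0 at each time, where 2.24%, 2.96% and 2.76% of all rows passed, and it was 0 when the deposited statistic was treated as a normal deviate, where 0.0463%, 0.0622% and 0.108% of rows passed. With so small a share of rows called, a count of 0 in a list of this size is near the background. Over the 28 single-gene values the fold change of volatiles over control ran from 0.768 for LHY at 48 h to 1.15 for PRR9 at 3 h. At 48 h the changes of LHY and CCA1 were larger in absolute size than those of 89.0% and 84.5% of tested rows. The median absolute log2 fold change of the core genes at 48 h was 0.10, against 0.11 over all tested rows. The smallest p-value in the authors' deposited table was 0.130, for CCA1 at 48 h, and the q-values of the core genes were 0.9998 at 3 h, 0.9996 at 24 h and 0.9993 at 48 h.

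A p-value that misses the threshold does not show that the levels were equal. The implied error used here is each log2 fold change over its deposited test statistic, on the assumption that the statistic was formed as change over error. Read so, the 24 values with a mean of at least 5 FPKM had implied errors up to 0.298 on the log2 scale, and their 95% intervals held no fold below 0.545 or above 1.67. For the 4 values under 5 FPKM, CCA1, LHY and PRR9 at 3 h and LHY at 48 h, the intervals reached from 0.444 to 2.38. The smallest log2 fold change, in absolute size, of any called row with both values above 0 was 0.71 at 3 h, 0.77 at 24 h and 0.69 at 48 h. Differences below that size were not called for any gene in these tables. The p-value of CCA1 at 48 h was 0.130 in the authors' deposited table and 0.295 when the statistic was read as a normal deviate, so the implied errors may be too large.

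**Figure D2:**
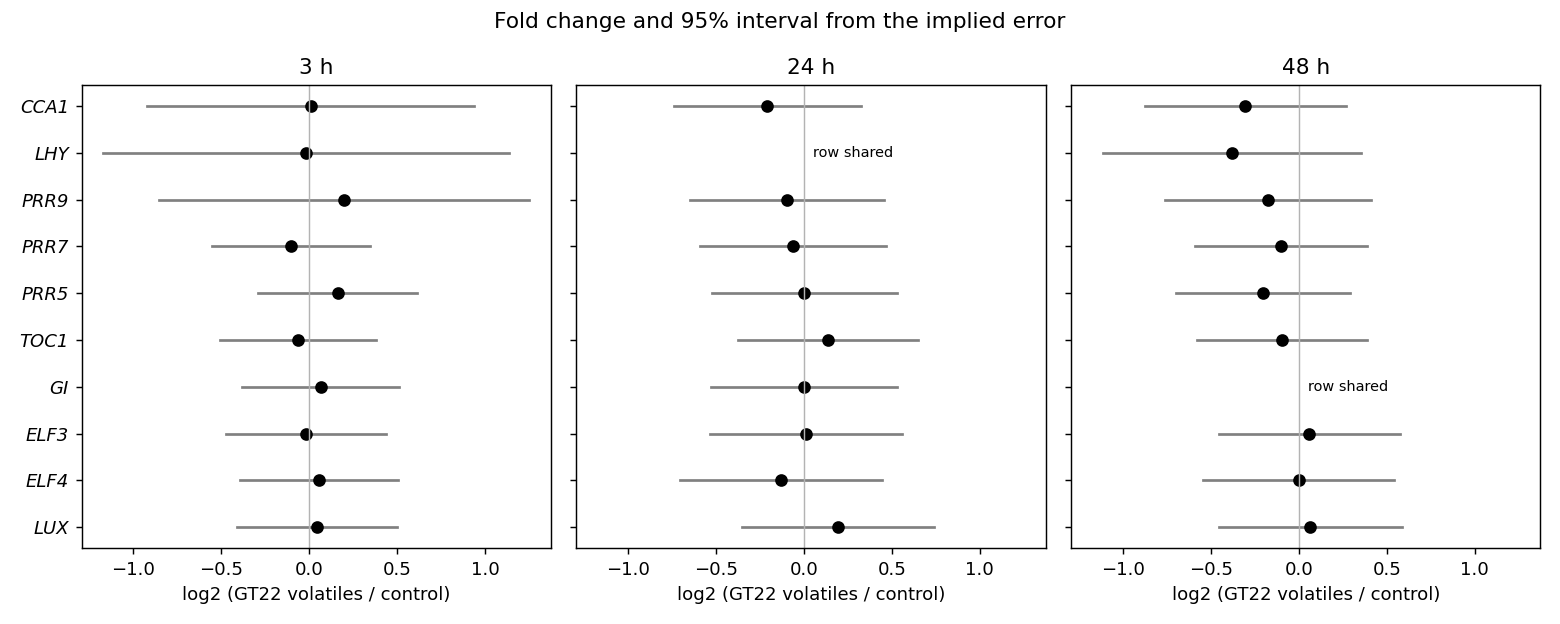
Log2 fold change of GT22 volatiles over control for each core clock gene at 3, 24 and 48 h, with the 95% interval from the implied error as a line. All 28 intervals hold 0. LHY at 24 h and GI at 48 h are left out because their row also counts a neighbouring gene.

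The dawn factors were low at 3 h in both groups, and CCA1 was lowest there among the 3 times. CCA1 (AT2G46830, TAIR10 chromosome 2, 19245672 to 19248914) had 1.04 FPKM under volatiles and 1.04 FPKM in controls at 3 h. It had 15.5 FPKM under volatiles and 17.9 FPKM in controls at 24 h, and 7.23 and 8.92 FPKM at 48 h, volatiles named before controls. The log2 fold changes of CCA1 were 0.01, -0.21 and -0.30 at 3, 24 and 48 h, with implied errors of 0.48, 0.27 and 0.29 and p-values of 0.976, 0.274 and 0.130 in the authors' deposited table. LHY (AT1G01060, chromosome 1, 33379 to 37871) had 0.57 FPKM under volatiles and 0.58 FPKM in controls at 3 h, and 1.96 FPKM under volatiles and 2.55 FPKM in controls at 48 h. Both genes were thus lower under volatiles at 48 h by values that did not pass the test, with p-values of 0.130 for CCA1 and 0.141 for LHY in the authors' deposited table.

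LHY had no value of its own at 24 h, because its row at that time was merged with its neighbour AT1G01050 (PPa1, an inorganic pyrophosphatase). The merged row stood at 84.0 FPKM under volatiles and 91.3 FPKM in controls. PPa1 alone stood at 91.9 and 90.5 FPKM at 3 h and at 88.6 and 90.2 FPKM at 48 h, volatiles before controls, so the merged value cannot be read as LHY.

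The pseudo-response regulators differed among themselves over time but not detectably between groups. PRR9 (AT2G46790, chromosome 2, 19232649 to 19235087), the earliest of them in the day, had 0.95 FPKM under volatiles and 0.83 FPKM in controls at 3 h. At 24 h it had 10.9 FPKM under volatiles and 11.6 FPKM in controls, and at 48 h 7.60 FPKM under volatiles and 8.60 FPKM in controls. PRR9 therefore had the low value at 3 h that CCA1 also had, with p-values of 0.599, 0.634 and 0.394 in the authors' deposited table. PRR7 (AT5G02810, chromosome 5, 637897 to 641977), which follows PRR9, had 47.1, 48.9 and 54.9 FPKM under volatiles at 3, 24 and 48 h, against 50.6, 51.0 and 58.8 FPKM in controls. It was the member whose level differed least between times, and it was slightly lower under volatiles at each time, with log2 fold changes of -0.10, -0.06 and -0.10 and p-values of 0.517, 0.744 and 0.571 in the authors' deposited table.

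PRR5 (AT5G24470, chromosome 5, 8355951 to 8358873), a repressor of the late day, had 54.6 FPKM under volatiles and 48.8 FPKM in controls at 3 h. It had 17.7 FPKM in both groups at 24 h, and 29.6 FPKM under volatiles and 34.1 FPKM in controls at 48 h. TOC1 (AT5G61380, chromosome 5, 24675064 to 24678550), the evening member of the family, had 73.2 FPKM under volatiles and 76.4 FPKM in controls at 3 h, 15.6 and 14.2 FPKM at 24 h, and 20.005 and 21.4 FPKM at 48 h. Both were highest at 3 h in both groups. The log2 fold changes of PRR5 were 0.16, 0.00 and -0.20, with p-values of 0.312, 0.992 and 0.260 in the authors' deposited table, and those of TOC1 were -0.06, 0.14 and -0.10, with p-values of 0.694, 0.474 and 0.575. Each of these fold changes was smaller than its own implied error, which was 0.23 to 0.27 for PRR5 and TOC1.

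GI (AT1G22770, chromosome 1, 8061844 to 8067716) had 53.8 FPKM under volatiles and 51.4 FPKM in controls at 3 h, and 29.1 FPKM in both groups at 24 h. At 48 h its row was merged with AT1G22780 (PFL, a ribosomal protein gene) and stood at 478.0 FPKM under volatiles and 424.3 FPKM in controls. PFL alone had 311.9 and 295.9 FPKM at 3 h, volatiles before controls, so GI was not measured by itself at 48 h.

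ELF4 (AT2G40080, chromosome 2, 16734294 to 16734912), the small protein of the evening complex, was the most abundant core gene at 3 h, with 317.7 FPKM under volatiles and 305.6 FPKM in controls. It had 32.3 FPKM under volatiles and 35.4 FPKM in controls at 24 h, and 50.1 and 50.2 FPKM at 48 h. LUX (AT3G46640, listed as PCL1 in RefSeq, chromosome 3, 17183070 to 17185218), the DNA-binding member of the complex, had 82.6 and 80.0 FPKM at 3 h, 17.2 and 15.1 FPKM at 24 h, and 25.9 and 24.8 FPKM at 48 h, volatiles before controls. The pair were thus highest at 3 h and lowest at 24 h, whichever group was read. Log2 fold changes of ELF4 were 0.06, -0.13 and 0.00, with p-values of 0.724, 0.532 and 0.990 in the authors' deposited table. For LUX they were 0.05, 0.19 and 0.06, with p-values of 0.775, 0.334 and 0.728.

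ELF3 (AT2G25930, chromosome 2, 11059035 to 11066028 at 3 and 48 h), the scaffold of the evening complex, had 33.1 FPKM under volatiles and 33.5 FPKM in controls at 3 h, 16.8 and 16.6 FPKM at 24 h, and 20.2 and 19.4 FPKM at 48 h. It varied less over time than its partners ELF4 and LUX, and its log2 fold changes of volatiles over control were -0.02, 0.01 and 0.06. The coordinates given for ELF3 are those of its deposited row, which runs past the annotated end of the gene, 11063324 in TAIR10.1. In TAIR10.1 ELF3 overlaps 2 annotated genes on the other strand and LUX overlaps 1, and the use of strand in counting is not stated, so a share of those reads in the values of ELF3 and LUX cannot be told apart.

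**Figure D3:**
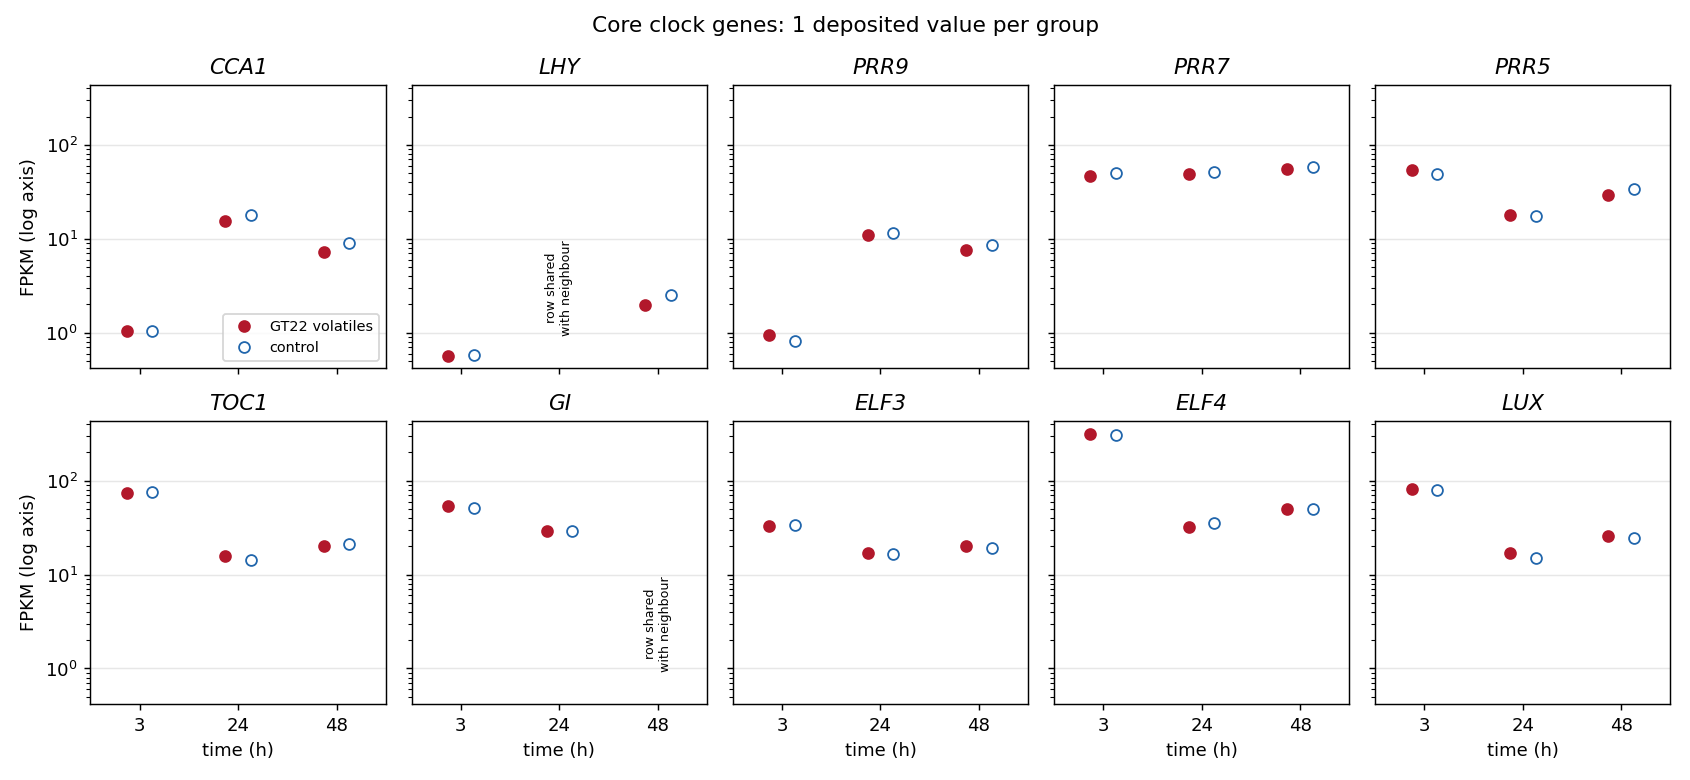
FPKM of each core clock gene on a log axis at 3, 24 and 48 h, with GT22 volatiles as filled red points and control as open blue points. Each point is the 1 value deposited for a group of 2 libraries, so there are no error bars. The paired points lie close together at each time, while CCA1, LHY and PRR9 are lowest and ELF4, TOC1 and LUX highest at 3 h.

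The phase of the controls was read from the same values. The 3 tables were made separately, so levels at different times are set side by side as a description and were not tested. In controls, CCA1 was 17.3 times and PRR9 14.0 times higher at 24 h than at 3 h, while ELF4 was 8.63 times, TOC1 5.37 times, LUX 5.31 times, PRR5 2.76 times, ELF3 2.01 times and GI 1.77 times higher at 3 h than at 24 h. PRR7 was 1.01 times as high at 24 h as at 3 h. At 48 h CCA1 was 8.61 times, LHY 4.41 times and PRR9 10.4 times the control level at 3 h. The folds of CCA1, LHY and PRR9 rest on control levels at 3 h of 1.04, 0.58 and 0.83 FPKM, taken with no pseudocount. Implied errors of volatiles over control at 3 h were 0.48, 0.59 and 0.54 for these genes on the log2 scale. The size of their folds is therefore uncertain. The controls at 3 h thus held low dawn genes and high evening genes, and those at 24 and 48 h held more of the dawn genes and less of the evening genes.

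These differences between times were large among all genes. Over 15455 genes above 1 FPKM in all 6 columns, the control values at 24 h and 3 h differed by a median of 0.26 on the log2 scale in absolute size, and 5.15% differed by more than 1. Among the 9 core genes with a row of their own at both times, 2 were higher and 4 lower by more than 1 at 24 h under volatiles, and 2 were higher and 5 lower in controls, ELF3 lying near the limit at -0.98 under volatiles and -1.01 in controls. PRR9, 1 of the 2 higher genes, was below 1 FPKM at 3 h, and GI had no row of its own at 48 h. These 2 genes are counted among the 9 but not among the 15455. The log2 difference of 24 h over 3 h was 3.89 under volatiles and 4.11 in controls for CCA1, -3.30 and -3.11 for ELF4, and -2.23 and -2.43 for TOC1. All 9 had the same sign in both groups, and the volatile and control differences lay within 0.30 of each other.

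The controls at 24 and 48 h, which lie 24 h apart, did not hold the same levels. CCA1 stood at 8.92 FPKM at 48 h and 17.9 FPKM at 24 h, whereas PRR5 stood at 34.1 FPKM at 48 h and 17.7 FPKM at 24 h. Their log2 differences of 48 h over 24 h were -1.10 and 0.74 under volatiles, and -1.01 and 0.95 in controls. LUX and TOC1 had 0.59 and 0.35 under volatiles, and 0.72 and 0.59 in controls. Over all 15455 genes only 0.731% differed by more than 1 between those times, and the median absolute difference was 0.16. The hour of day of either sampling is not given, so a difference in sampling hour and a difference in the seedlings cannot be told apart.

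With the spread between libraries unseen, the implied error of the comparison within a table was the only measure at hand for neighbouring levels. Of 18 pairs of neighbouring times in the order of control levels, 5 differed by less than 1.96 times the larger implied error: PRR9 at 24 and 48 h, PRR7 at 24 and 3 h and at 48 and 24 h, ELF3 at 48 and 24 h, and ELF4 at 48 and 24 h. The other 13 were farther apart, among them each step between 3 h and the nearest later time except that of PRR7.

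A ratio within 1 column does not move with the scaling of that column. The geometric mean of TOC1, PRR5, GI, ELF4 and LUX at 3 h was 115.6 times that of CCA1 and LHY under volatiles and 111.1 times in controls, or -6.85 and -6.80 as the log2 ratio of morning over evening. With CCA1 and LHY near or below 1 FPKM there, a pseudocount of 1 FPKM moved these log2 ratios to -5.66 under volatiles and -5.60 in controls. Because LHY and GI each lack a value at a later time, the ratio was also taken for CCA1 against TOC1, PRR5, ELF4 and LUX, a choice made after seeing the data. The evening genes then stood at 97.0 times CCA1 under volatiles and 94.3 times in controls at 3 h, at 1.28 and 1.07 times at 24 h, and at 4.10 and 3.46 times at 48 h, volatiles before controls. With these 4 genes the evening side stood slightly higher relative to CCA1 under volatiles at each time, but with TOC1 alone it stood lower at 3 h, at a log2 ratio of CCA1 over TOC1 of -6.13 under volatiles and -6.20 in controls. On the log2 scale the morning to evening ratio was -6.60 and -6.56 at 3 h, -0.35 and -0.10 at 24 h and -2.04 and -1.79 at 48 h, and the gap between groups was below its implied errors of 0.49, 0.30 and 0.32.

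The response of each core gene was also compared between times, as the difference of its log2 fold changes over the combined implied error, read as a normal deviate. P-values were adjusted (Benjamini-Hochberg) over all rows whose mean reached 1 FPKM. For 24 h against 3 h 0 of 8 core genes passed, where 0.0% of 16708 rows passed. For 48 h against 3 h 0 of 7 core genes passed, where 0.0297% of rows passed, and for 48 h against 24 h 0 of 8, where 0.00593% of rows passed. At an unadjusted p-value under 0.05 the core counts were 0 as well, where 0.299%, 0.446% and 0.427% of rows passed. So few rows of any kind passed this test that a count of 0 among 7 or 8 genes says little. PRR9 and LHY, below 1 FPKM at 3 h, were left out of the tests against 3 h. Untested, the response of PRR9 differed by 0.38 on the log2 scale, in absolute size, between 48 and 3 h. Among the core genes tested, the largest difference in absolute size was that of PRR5 for 48 h minus 3 h. It was -0.37 on the log2 scale with a 95% interval of -1.04 to 0.30. These intervals are wide, and the test does not show that the responses were alike.

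The core list was described against all tested rows by its counts and medians. The median log2 fold change of the core genes was 0.03 at 3 h, 0.00 at 24 h and -0.10 at 48 h, against -0.01, -0.02 and 0.00 over all tested rows. Of the core genes 4 of 10, 4 of 9 and 7 of 9 lay below 0, against 52.4%, 54.7% and 51.0% of all tested rows. The median absolute log2 fold change was 0.06, 0.10 and 0.10 for the core genes and 0.10, 0.13 and 0.11 for all tested rows. The 7 genes below 0 at 48 h were CCA1, LHY, PRR9, PRR7, PRR5, TOC1 and, at 0.00 after rounding, ELF4, and none passed the test.

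The wider clock was read from a list of 31 other genes: the RVE factors, the LNK coactivators, the F-box proteins ZTL, FKF1 and LKP2, PRR3, BOA, COR27 and COR28, ELF4-like genes and others. Of those with a row of their own 29, 27 and 26 were tested at 3, 24 and 48 h, and 0 were called at any time in either direction. Without adjustment, 0, 0 and 1 of them had p under 0.05 in the authors' deposited table, the 1 gene being lower under volatiles, where 1.22% of all rows at 48 h were lower and 1.55% higher at that threshold. The 1 gene was RVE8, an activator of evening genes and a relative of CCA1, named after its values were seen. It had 3.84 FPKM under volatiles and 5.67 FPKM in controls at 48 h, a log2 fold change of -0.56 and the authors' deposited table gives it p = 0.0442 and q = 0.9993. The list median was -0.09, 0.01 and -0.14, and 19 of 29, 12 of 27 and 21 of 26 members lay below 0.

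The other clock genes with the smallest p-values among those of at least 5 FPKM did not pass either. At 3 h ELF4-L4, of the ELF4 family, had 17.1 FPKM under volatiles and 22.8 FPKM in controls, RVE4 had 19.3 and 23.9 FPKM, and RVE5 had 5.74 and 6.68 FPKM. At 24 h ELF4-L2 had 19.1 FPKM under volatiles and 15.7 FPKM in controls, CHE, a TCP factor that represses CCA1, had 63.7 and 54.6 FPKM, and LKP2 had 7.49 and 6.56 FPKM. At 48 h RVE4 had 28.7 FPKM under volatiles and 34.8 FPKM in controls, and the coactivators LNK2 and LNK1 had 36.8 and 44.2 FPKM and 22.3 and 26.3 FPKM. Their p-values in the authors' deposited table ran from 0.0539 for ELF4-L4 at 3 h to 0.359 for LKP2 at 24 h, and all q-values were above 0.99.

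COR27, JMJ30 and LNK3 are named here after their values were seen, for their differences between times. COR27 differed more between the controls at 24 and 3 h than any core gene, with a log2 difference of -5.68 against 4.11 for CCA1. This gene, a repressor that acts with the clock in the evening, had 54.2, 0.75 and 3.72 FPKM under volatiles at 3, 24 and 48 h, against 53.3, 1.04 and 2.70 FPKM in controls. Among the 15455 genes above 1 FPKM in all columns, none differed more than COR27 between the controls at 24 and 3 h, although COR27 itself fell below 1 FPKM under volatiles at 24 h and is not among them. JMJ30, a demethylase of the evening, had 39.5, 2.89 and 4.06 FPKM under volatiles, against 38.2, 2.27 and 5.24 FPKM in controls. LNK3, a coactivator of the morning, ran the other way, with 1.03, 13.7 and 7.97 FPKM under volatiles, against 1.20, 12.9 and 9.28 FPKM in controls. Of the 27 other clock genes with a row of their own at both times, 6 were higher and 7 lower by more than 1 on the log2 scale at 24 h than at 3 h under volatiles, and 6 were higher and 8 lower in controls.

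**Figure D4:**
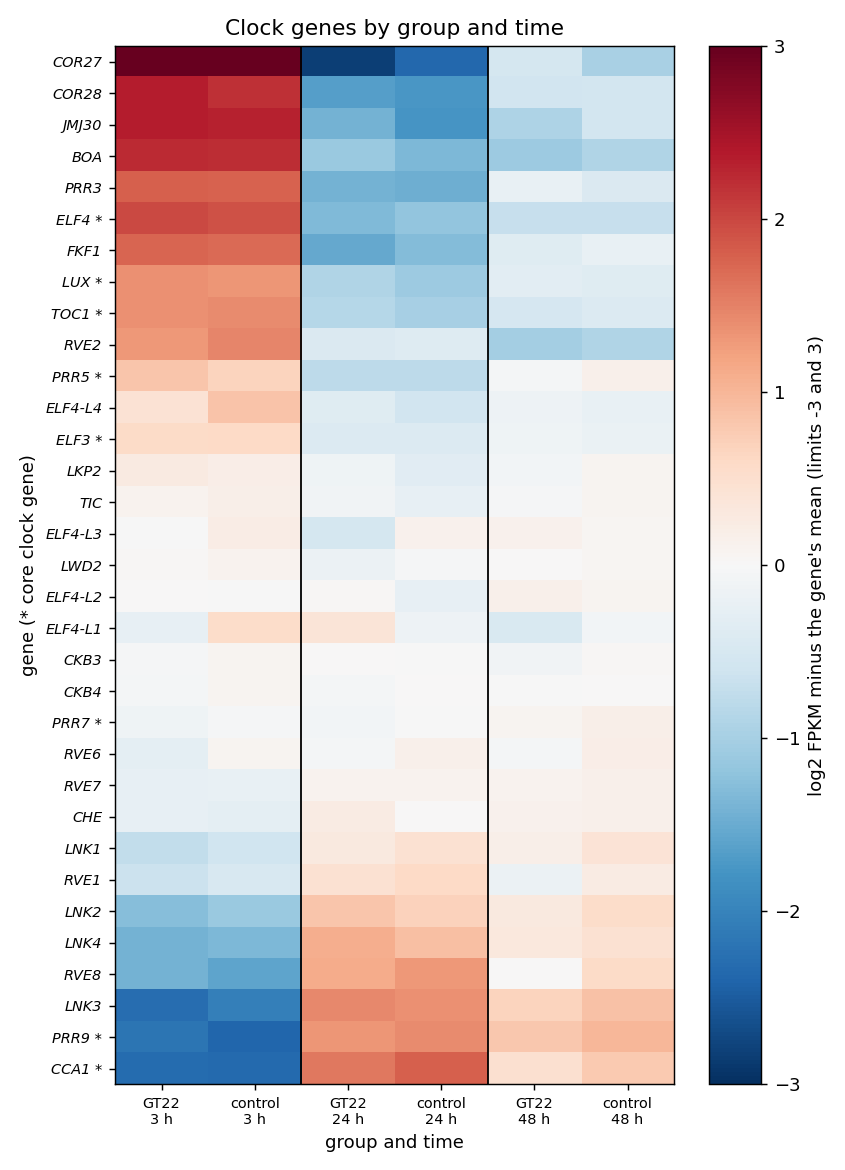
Log2 FPKM minus the gene's own mean over the 6 group values, for the 33 core and other clock genes with a row of their own above 0 at all 3 times, of which 8 are core genes (marked with a star). Colours stop at -3 and 3. Columns run from 3 to 48 h with GT22 left of control, and genes are ordered by their level at 3 h relative to 24 h. The GT22 and control columns of a time resemble each other, and the 3 h columns differ from the later ones, with COR27 at the top and CCA1 at the bottom.

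The genes whose profile over the 6 group values lay nearest to the core genes were found by the root mean square difference of centred log2 FPKM, among 11641 genes for CCA1 and 11637 for the mean of TOC1, PRR5, ELF4 and LUX. The 6 values are 3 times with 2 groups each, and the nearest of so many genes must lie close. The search took in only genes averaging 5 FPKM or more over both groups at every time. CCA1 itself, at 1.04 FPKM in both groups at 3 h, was below that limit. LNK3, a clock gene with a similar course, was below it too, at 1.03 FPKM under volatiles and 1.20 FPKM in controls at 3 h. Low genes nearer to CCA1 were therefore left out of the list. For CCA1 the nearest genes searched were AT4G22485, AT4G22517, AT5G48490, AT4G22505 and AT5G08760, with differences of 0.30 to 0.57. AT4G22485 had 11.7, 131.1 and 85.2 FPKM under volatiles at 3, 24 and 48 h, against 15.1, 138.4 and 96.2 FPKM in controls. For the evening genes they were AT5G62360, BBX8, AT4G33610, WCRKC1 and GER3, with differences of 0.10 to 0.16. BBX8 (AT5G48250), a B-box protein, had 35.6, 8.29 and 11.9 FPKM under volatiles, against 33.7, 8.10 and 11.8 FPKM in controls.

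The labelled tissue was checked against markers of shoot, root, seed and flower. RBCS1A, LHCB1.3 and LHCB1.1, genes of green tissue, stood between 1669 and 22219 FPKM over the 6 groups, and 5 root markers, among them PYK10 and CASP1, between 4.39 and 2465 FPKM. The flower genes AP1 and AG and the seed storage genes CRA1 and CRU3 were below 1 FPKM in every group. Of the 12 markers only the root aquaporin TIP2;3 was called, at 24 h, where 0.124% of all tested rows were called. TIP2;3 had 9.42 FPKM under volatiles and 21.5 FPKM in controls at 24 h, and q = 0.0403 in the authors' deposited table. AG, AP1 and CRU3 were not tested at any time, and CRA1 was tested at 3 h only. In whole seedlings, fewer cells of a type and less RNA per cell cannot be told apart.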

How the data were processed

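RNA-seq was made from 12 whole-seedling libraries, 2 in each of 6 groups (GT22 volatiles or control at 3, 24 and 48 h). Reads were handled with Trimmomatic 3.6 and TopHat on TAIR10, per the submitters' processing notes. The authors deposited 1 table per time with an FPKM value per gene and group, a test statistic (a score), p-values and q-values, and per the file headers the layout is that of a Cuffdiff gene test. The name of the testing program was not given in the sources used here. Each table's time is known only from its name.

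Fold changes were computed from the FPKM values with no pseudocount. A call is a deposited q-value under 0.05. Rows that merge several genes gave no value to a member. Row starts were 1 lower than annotated starts in 6645 of 24820 comparable rows, and equal in 127, so 1 was added to give coordinates counted from 1. Locus tags were matched to TAIR10.1.

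All core genes are named, with the other clock genes and outputs called or of smallest p-value (3 and 2 per time, mean of at least 5 FPKM). The 5 genes nearest each profile, among those searched, are named too. Outside these rules, RVE8, COR27, JMJ30, LNK3, GRP7, FT and PIL1 were named after their values were seen. GRP8 and CAT3, also outside them, were named for their evening elements. The profiles of CCA1 and of TOC1, PRR5, ELF4 and LUX replaced those planned with LHY and GI, which lack a value at a time. Members and lists were chosen with earlier results of these data known. Computation used Python 3.11.15, numpy 2.4.6, pandas 2.3.3 and scipy 1.17.1.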

Additional observations from a re-analysis of the deposited data

How the results depend on the processing

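No paired analysis was possible because the tables hold 1 value per gene and group, and for the same reason no replicate could be left out. The count of core clock genes called stayed at 0 at each time with rows of at least 1 FPKM, with the statistic taken as a normal deviate and at an unadjusted p-value under 0.05. That of other clock genes did so too, except for 1 gene at 48 h at the unadjusted threshold, and with merged rows counted, a choice made after seeing the data, it was 0. The counts of the test between times stayed at 0 with no filter and with a pseudocount of 1 FPKM. Of 172 alternative fold changes of 43 named values, 169 kept their sign. CCA1 at 3 h and PRR7 at 24 h changed to -0.021 and 0.0084 with columns scaled to the same total, and ELF4 at 48 h to 0.0020 with the median of all tested rows set to 0. The log2 morning to evening ratio at 3 h was -5.66 under volatiles and -5.60 in controls with a pseudocount of 1 FPKM, and -6.35 and -6.34 with TOC1 and GI alone. With CCA1 over the 4 evening genes the pseudocount gave -5.65 and -5.60 at 3 h, and with TOC1 alone the ratio was -6.13 and -6.20 at 3 h, where the order of the groups turned, -0.012 and 0.33 at 24 h and -1.47 and -1.26 at 48 h. All 112 rescaled levels moved by less than the implied error. Depth is unknown and no library values were at hand, so changes smaller than those called cannot be told from no change.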

Other observations

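A list of 19 genes under clock control was read in the same way. Of these 17 were tested with a row of their own at each time, 0 were called, where 0.113%, 0.124% and 0.252% of all tested rows were called at 3, 24 and 48 h. Without adjustment, p was under 0.05 for 0, 1 and 1 of the 17, where 2.24%, 2.96% and 2.76% of all rows passed, so 1 gene is near the background. BBX24, a B-box protein of light signalling, had 226.2 FPKM under volatiles and 299.6 FPKM in controls at 24 h, a log2 fold change of -0.41, and the authors' deposited table gives p = 0.0359. CDF3, a Dof factor of the morning, had 22.2 FPKM under volatiles and 29.2 FPKM in controls at 48 h, a log2 fold change of -0.39, and the authors' deposited table gives p = 0.0310. CAT2, a catalase with a morning peak, had 169.2, 332.3 and 202.7 FPKM under volatiles at 3, 24 and 48 h, against 195.5, 420.2 and 254.6 FPKM in controls. CAT2 was lower under volatiles at each time, with p-values of 0.186, 0.0985 and 0.0657 in the authors' deposited table. PIF4, a growth regulator repressed by the evening complex, had 21.0 FPKM under volatiles and 23.9 FPKM in controls at 3 h. None of these passed the q-value threshold.

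GRP7 was chosen after its values were seen. This gene, for an RNA-binding protein of the evening whose window before the start held 3 evening elements, had 4334 FPKM under volatiles and 3925 FPKM in controls at 3 h. At 24 h it had 917 and 1028 FPKM, and at 48 h 1583 and 1657 FPKM, volatiles before controls. Of the 19 listed genes only GRP7 was lower by over 1 in log2 at 24 h than at 3 h, in each group. In each group 8 were higher by over 1, but not the same 8. FT and PIL1 were so only under volatiles, at 1.51 and 1.21, against -0.88 and -0.11 in controls. Neither was tested at 3 or 24 h. CAT2 and BBX24 were so only in controls, with 0.97 and 0.74 under volatiles. Like GRP7, the genes BBX24, GRP8 and CAT3 held an evening element. Their log2 differences of 24 h over 3 h in controls were 1.09, 0.25 and -0.07. The list's median log2 fold change of volatiles over control was -0.01, -0.13 and -0.07 at 3, 24 and 48 h, against -0.01, -0.02 and 0.00 over all tested rows.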
